A study of Saccharomyces cerevisiae with 63 samples.

Results

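Messenger RNA of the pho92 mutant was compared with that of the control strain, labelled WT, after 7 h in sporulation medium, over all genes, in diploid SK1 budding yeast. The comparison rests on 6 of the 63 libraries of the study, the 3 pho92 and the 3 WT libraries at 7 h, which are biological replicates per the labels. Both strains carried the copper-inducible pCUP-IME1 construct in place of the native control of IME1. Cells were grown in acetate medium, moved to sporulation medium with 0.3% potassium acetate, and given 50 µM copper sulfate at 2 h, so that the 7 h samples were taken 5 h after IME1 was induced. The study also holds an ime4 mutant and 7 times from 0 to 9 h for each of its 3 strains. The kind of allele in the pho92 mutant is not given in the sources used here, and the labels do not say whether more than 1 clone was used.

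N6-methyladenosine (m6A) is a methyl mark on adenosines inside mRNA. In budding yeast it is written during meiosis by a complex whose catalytic subunit is Ime4, and it is bound by Pho92, a protein with a YTH domain. The meiotic programme runs as a transcriptional relay. Ime1 turns on early genes, which replicate and recombine the chromosomes, and Ndt80 then turns on middle genes, which drive the nuclear divisions and wrap the products in prospore membranes and spore walls. Many early promoters hold a URS1 element, bound by Ume6, and many middle promoters hold a middle sporulation element (MSE), bound by Ndt80 and by the repressor Sum1.

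Total counts at 7 h ran from 15932335 to 33048881 per library, the deepest being WT replicate 1. The 100 most abundant genes held 54.29% to 58.45% of the counts in WT and 34.2% to 44.77% in pho92. Levels are therefore given as CPM, the counts per 1e6 counts, on library sizes scaled by the trimmed mean of M-values (TMM), with factors of 0.387 to 0.412 in WT and 0.576 to 0.915 in pho92. Such CPM can sum to more than 1e6 in a library, and they compare 1 gene between libraries, not genes of different length. Library pho92 replicate 3 stood apart. Its median absolute log2 difference over genes was 0.55 from replicate 1 and 0.37 from replicate 2, against 0.24 between those 2 and 0.12 to 0.26 among the WT libraries. It was the highest of the 3 pho92 libraries for 1620 of the genes called higher in pho92 (80.2%) and the lowest for 1361 of those called lower (83.1%), against 44.2% and 43.9% of all genes tested. Counts of calls over all genes, and of many but not all lists, are therefore also given without it. The 7 markers of meiotic cells were all present, and summed to 14800 to 16800 CPM in WT and 13700 to 15800 CPM in pho92. The haploid-specific pheromone genes MFA2, MF(ALPHA)1 and MF(ALPHA)2 were at 0.0849 to 6.62 CPM. The other haploid-specific genes were not near 0, and the 12 of that list summed to 1860 to 2220 CPM in WT and 664 to 1300 CPM in pho92, most of it STE4, STE5 and STE18. What part these differences between libraries have in the results below was not tested.

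PHO92 itself (YDR374C, chromosome IV, 1223474 to 1224394 on R64) stood at 1687, 1979.7 and 2068 CPM in WT replicates 1 to 3 and at 1.24, 0.17 and 1.28 CPM in pho92, where 15, 2 and 19 reads were counted. Its log2 fold change was -11.01 (SE 0.72), with an adjusted p of 1.68e-16 by edgeR's quasi-likelihood test with Benjamini-Hochberg adjustment over all genes tested. The labels of the 6 libraries and the level of the targeted gene therefore match. Among the 5 genes that lie beside PHO92, 1 was higher and 1 lower. FRQ1, which encodes the calcium-binding partner of a phosphatidylinositol 4-kinase and is transcribed towards PHO92, was at 62.6, 31.9 and 27.4 CPM in WT and 14.5, 16.6 and 16.8 CPM in pho92, a log2 fold change of -1.36 (SE 0.21) that was -0.90 without WT replicate 1. VPS74, which keeps glycosyltransferases in the Golgi, was at 43.7, 32.5 and 33.7 CPM in WT and 49.4, 61.7 and 64.6 CPM in pho92.

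At 7 h, 3657 of the 5822 genes tested (62.8%) differed between pho92 and WT at an adjusted p under 0.05. Of these, 2019 were higher in pho92 (34.7% of all genes tested) and 1638 were lower (28.1%). The change exceeded 2-fold for 830 higher and 637 lower genes and 4-fold for 79 and 60, and the median absolute log2 fold change of the called genes was 0.88. In 1793 of the higher and 1469 of the lower genes all 3 pho92 libraries lay outside the range of the 3 WT libraries. That separation was common: over all genes tested, all 3 pho92 values lay above all 3 WT values in 33.2% and below them in 28.3%. Without pho92 replicate 3 there were 1704 higher (29.2%) and 1251 lower (21.4%) genes, of which 1659 and 1224 were also called with it, and the log2 fold change of 0 called genes changed sign. Without WT replicate 1 there were 2028 higher (34.7%) and 1540 lower (26.4%). The shares were 31.8% and 26% without WT replicate 2, 31.6% and 26.3% without WT replicate 3, 36.3% and 29.9% without pho92 replicate 1, and 33.5% and 26.4% without pho92 replicate 2. The authors' deposited table counted 1795 higher and 1941 lower genes at the same threshold.

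The split between higher and lower moved with the scaling of the libraries, whose share of counts in the 100 most abundant genes differed between the strains as given above. With total counts in place of TMM factors the split was 3908 higher (67.1%) and 416 lower (7.15%), and with upper-quartile factors 2482 (42.6%) and 1262 (21.7%). These moved the median log2 fold change of all genes by 0.84 and 0.21. All fold changes below are on TMM-scaled libraries, and are relative to most genes rather than to the cell. Counts of called list members below are to be read beside the shares over all genes, 34.7% higher and 28.1% lower. Without pho92 replicate 3 those shares were 29.2% and 21.4%. In bulk RNA, a smaller share of cells at a stage and less RNA of a gene in each cell cannot be told apart.

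**Figure D1:**
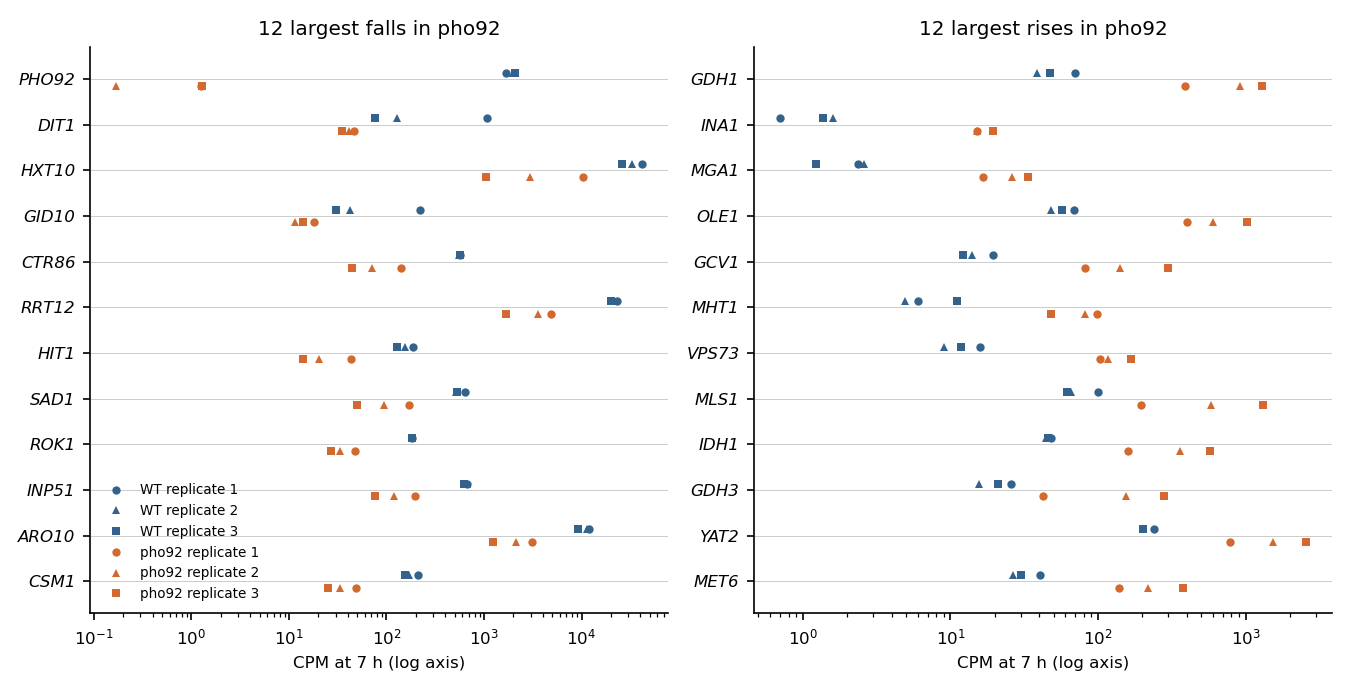
CPM at 7 h (horizontal log axis) of the 12 genes with the largest falls (left) and the 12 with the largest rises (right) in pho92 against WT, each point being 1 library, coloured by strain and shaped by replicate number. The 3 pho92 points lie clear of the 3 WT points in every gene shown, as the rule that chose the genes required, and the replicate 1 point of WT stands far from the other WT points for DIT1 and GID10.

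The regulators that pass meiosis from entry to the divisions differed by gene. NDT80 (YHR124W, chromosome VIII, 356561 to 358444 on R64), which encodes the activator of middle genes, stood at 6068, 6220.4 and 6518 CPM in WT and at 3886, 3919 and 2305 CPM in pho92. The 2 groups did not overlap, but the log2 fold change of -0.90 (SE 0.41) missed the threshold (adjusted p = 0.056). IME2, the kinase that acts beside Ime1, was at 6415, 7676 and 7987 CPM in WT and 6126, 7190.4 and 5326 CPM in pho92 and its groups overlapped (log2 fold change -0.24, SE 0.38, adjusted p = 0.59). IME1, under the copper-inducible promoter, was at 851, 1062 and 981 CPM in WT and 1018, 1474 and 2348 CPM in pho92. Its log2 fold change of 0.74 (SE 0.25) passed the threshold (adjusted p = 0.01), yet replicate 1 of pho92 lay within the WT range and without pho92 replicate 3 the value was 0.37 and no longer called.

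Among the 14 genes of the IME1 to NDT80 relay and its repressors, 3 were higher and 3 lower, or 2 and 2 without pho92 replicate 3. Over all genes tested 34.7% were higher and 28.1% lower. RFM1, which tethers the histone deacetylase Hst1 to the repressor Sum1, was at 548, 435 and 461 CPM in WT and 271, 194 and 121 CPM in pho92, a log2 fold change of -1.30 (SE 0.21, adjusted p = 8.53e-07). RME1, which encodes a repressor of IME1, was low but higher in pho92, at 15.6, 19.1 and 21.1 CPM against 9.07, 7.68 and 6.4 CPM in WT. MCK1, a protein kinase of meiotic entry, differed by -0.55 (SE 0.11), a direction that turned under total-count scaling (0.24).

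Of the m6A machinery, 1 component gene rose more than 2-fold. IME4, the methyltransferase gene, was at 155, 165 and 169 CPM in WT and 120.5, 140.1 and 154 CPM in pho92, with a log2 fold change of -0.24 (SE 0.18) and an adjusted p of 0.258. Its coding region overlaps the antisense RNA RME2 in the annotation, and the strand setting of the counting is not given in the sources used here, so the reads of the 2 cannot be told apart. Of the 6 genes of the methyltransferase complex, 2 were higher and 0 lower, or 1 and 0 without pho92 replicate 3. VIR1, the yeast counterpart of virilizer, rose from 133, 135 and 129 CPM in WT to 236, 308 and 304 CPM in pho92 with no overlap (log2 fold change 1.09, SE 0.21, adjusted p = 2.1e-05). KAR4 differed by 0.40 (SE 0.15) and lost its call when any of 4 single libraries was left out.

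The genes of the nuclear divisions had a lower median in pho92 on TMM-scaled libraries. Of 21 tested, 7 fell and 2 rose, beside 28.1% lower and 34.7% higher over all genes tested. Their median log2 fold change was -0.43 against 0.06 over all genes. Under total-count scaling the median was 0.35, and 1 fell and 8 rose. The summed level of the list was 47208, 47490.0 and 47310.0 CPM in the WT libraries and 33061, 29356 and 16742 CPM in those of pho92. CSM1, a subunit of monopolin, which joins sister kinetochores in the first division, fell furthest, from 211, 171 and 156 CPM to 49.1, 33.7 and 25 CPM (log2 fold change -2.32, SE 0.20, adjusted p = 3.77e-13). LRS4, which encodes its partner in monopolin, went the other way, from 32.6, 34.7 and 39.5 CPM to 48.3, 56.8 and 64.2 CPM.

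CDC20 and AMA1 encode activators of the anaphase-promoting complex, AMA1 being specific to meiosis. CDC20 was at 5604, 4821 and 4899 CPM in WT and 2388, 2015 and 1027 CPM in pho92, a log2 fold change of -1.50 (SE 0.44). AMA1 was at 23618, 21024 and 19756 CPM in WT and 13171, 9171 and 5225 CPM in pho92, and its call was lost without pho92 replicate 3, where the log2 fold change was -0.94. ESP1, the separase that cleaves cohesin, and CLB5, an S-phase cyclin, fell by 1.10 and 1.09 on the log2 scale. The polo kinase gene CDC5, a target of Ndt80, was not called, at 1816, 2346 and 2294 CPM in WT and 2657, 3320.2 and 2148 CPM in pho92. In the outer kinetochore, 7 of 20 genes fell and 0 rose, NSL1 falling from 67.7, 60.0 and 66.3 CPM to 45.8, 27.6 and 21.5 CPM and DAD3 from 231, 261 and 284 CPM to 167, 119 and 67.5 CPM. Over all genes tested 28.1% fell and 34.7% rose. Without pho92 replicate 3, 5 of the 20 kinetochore genes fell and 0 rose, beside 21.4% and 29.2% of all genes. The median of the kinetochore list was -0.27 and turned to 0.54 with total counts, when 1 of its genes fell and 13 rose.

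On TMM-scaled libraries, genes that build the spore were lower in summed level in every pho92 library than in any WT library. How far the strains separate in these sums depends on the TMM factors. The prospore membrane list summed to 144400.0, 146300.0 and 146850.0 CPM in WT and 92239, 80526 and 42251 CPM in pho92, and the spore wall list to 158210.0, 166700.0 and 167540.0 CPM and 102520.0, 101340.0 and 57016 CPM. All 3 pho92 values lay below all WT values in 18 of the 26 prospore genes and in 15 of the 24 wall genes, beside 28.3% of all genes. Fewer passed the test. Over all genes tested 28.1% were lower and 34.7% higher. Those shares were 21.4% and 29.2% without pho92 replicate 3, and 7.15% and 67.1% with total counts. In the prospore list 9 fell and 2 rose (median -0.83), and without pho92 replicate 3 the counts were 1 and 2 (median -0.59), and with total counts 0 and 4 (median -0.07). In the wall list 8 fell and 2 rose (median -0.85), and with total counts 4 fell and 6 rose (median -0.08), while without pho92 replicate 3 6 fell and 1 rose.

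SPO71, needed to shape the prospore membrane, was at 2047, 2110.5 and 2133 CPM in WT and 1279.5, 1069 and 602 CPM in pho92, a log2 fold change of -1.09 (SE 0.30) with an adjusted p of 0.00161. SPS1, a kinase of prospore membrane closure, and ISC10, which acts through the spore kinase Smk1, fell by 1.49 and 1.35. Both calls were lost without pho92 replicate 3. SPO1, a meiosis-specific phospholipase homologue that acts at the spindle pole, rose instead, from 202, 204 and 199 CPM to 314, 398 and 536 CPM, as did the lipid transporter gene VPS13, from 206, 208 and 192 CPM to 321, 314 and 292 CPM.

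The outer layer of the spore wall is made of dityrosine, which DIT1 and DIT2 produce in turn. DIT1 was at 1062, 129 and 75.5 CPM in WT and 46.6, 41.4 and 35.1 CPM in pho92, so that WT replicate 1 stood far above the other libraries. Its log2 fold change was -3.37 (SE 0.43), and without that library it was -1.33 and still called. DIT2 was steadier, at 514, 338 and 338 CPM in WT and 178, 132 and 68.2 CPM in pho92 (log2 fold change -1.66, SE 0.36). SPR1, a spore-specific glucanase, fell from 27060.0, 23291 and 22179 CPM to 8476, 6091 and 3065 CPM, and CHS3, the chitin synthase of the chitosan layer, from 1372, 1310.3 and 1307 CPM to 986, 738 and 458 CPM. LDO16, a lipid droplet gene whose locus overlaps LDO45, rose from 505, 647 and 627 CPM to 1075, 1107 and 797 CPM.

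Other genes induced in sporulation were among the most abundant. SPS4, whose product has no known activity, reached 178542, 156631 and 146796 CPM in WT and 74111, 51260.3 and 25129 CPM in pho92, and its log2 fold change of -1.68 (SE 0.65) was not called without pho92 replicate 3. HXT10 (YFL011W, chromosome VI, 112345 to 113985 on R64), a hexose transporter gene, was at 41518, 32772 and 26099 CPM against 10475, 2953 and 1058 CPM, 6.93-fold lower (log2 fold change -2.79, adjusted p = 0.00196), with a log2 fold change of -4.04 without pho92 replicate 1. RRT12, a subtilisin-family protease gene active in the spore wall, was 6.26-fold lower, at 4919.8, 3553 and 1682 CPM against 22969, 20310.4 and 20279 CPM. SGA1, the glucoamylase that breaks down glycogen in sporulation, and GAT3, a GATA-family gene, had log2 fold changes of -2.02 and -1.71, and of -2.62 and -2.32 without pho92 replicate 1. In this list 7 of 17 genes fell and 2 rose, with a median of -0.82 and of -0.04 with total counts, and without pho92 replicate 3 5 fell and 1 rose. RMD6 was one of those that rose, from 6.18, 11.2 and 14.5 CPM to 21.8, 36.3 and 34.4 CPM. Of the 7 septins, whose filaments line the prospore membrane, 3 fell and 1 rose, and without pho92 replicate 3 1 fell and 1 rose. CDC10 was at 9412, 9859 and 10940.0 CPM in WT and 6235, 6156 and 3441 CPM in pho92, a call lost without pho92 replicate 3 or WT replicate 3, and CDC12 at 66.7, 68.6 and 66.8 CPM in WT and 108, 125 and 97.7 CPM in pho92.

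The letters CACAAA, which form the core of the MSE, were searched on both strands in 300-base windows from 250 bases before to 50 after the start codon, read from the R64 genome. They occurred in 21 of 26 prospore windows (80.8%), 14 of 17 windows of the other sporulation genes (82.4%) and 15 of 24 wall gene windows (62.5%), against 19.3% of all 5504 windows. Among genes called lower in pho92 the share was 25.7%, and among those called higher 13.2%. The windows of 3 genes that fell are shown, 5′ to 3′ on the coding strand. The matches are in capitals, so that the letters can be read in place. In GAT3 the only match lies after the start codon, within the coding region, and none lies upstream of it.
SGA1 (chrIX:177754-178053, plus strand): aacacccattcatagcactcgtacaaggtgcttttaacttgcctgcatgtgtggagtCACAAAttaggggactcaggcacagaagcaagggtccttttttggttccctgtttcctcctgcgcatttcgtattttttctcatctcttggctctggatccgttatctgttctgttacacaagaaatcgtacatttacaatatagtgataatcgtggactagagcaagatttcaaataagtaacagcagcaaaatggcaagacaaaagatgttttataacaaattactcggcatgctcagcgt
GAT3 (chrXII:171089-171388, plus strand): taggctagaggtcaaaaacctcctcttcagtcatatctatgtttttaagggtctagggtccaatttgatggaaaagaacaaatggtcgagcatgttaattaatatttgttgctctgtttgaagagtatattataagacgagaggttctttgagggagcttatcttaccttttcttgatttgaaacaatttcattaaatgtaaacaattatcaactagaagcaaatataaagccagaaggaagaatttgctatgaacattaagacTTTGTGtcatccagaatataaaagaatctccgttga
ISC10 (chrV:550478-550777, minus strand): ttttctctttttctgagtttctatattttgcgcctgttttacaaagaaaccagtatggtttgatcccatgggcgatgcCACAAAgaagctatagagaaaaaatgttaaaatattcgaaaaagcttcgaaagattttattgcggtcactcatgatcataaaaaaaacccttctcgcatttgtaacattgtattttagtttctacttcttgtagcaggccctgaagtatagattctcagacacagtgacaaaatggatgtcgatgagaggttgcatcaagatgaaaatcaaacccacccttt

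**Figure D2:**
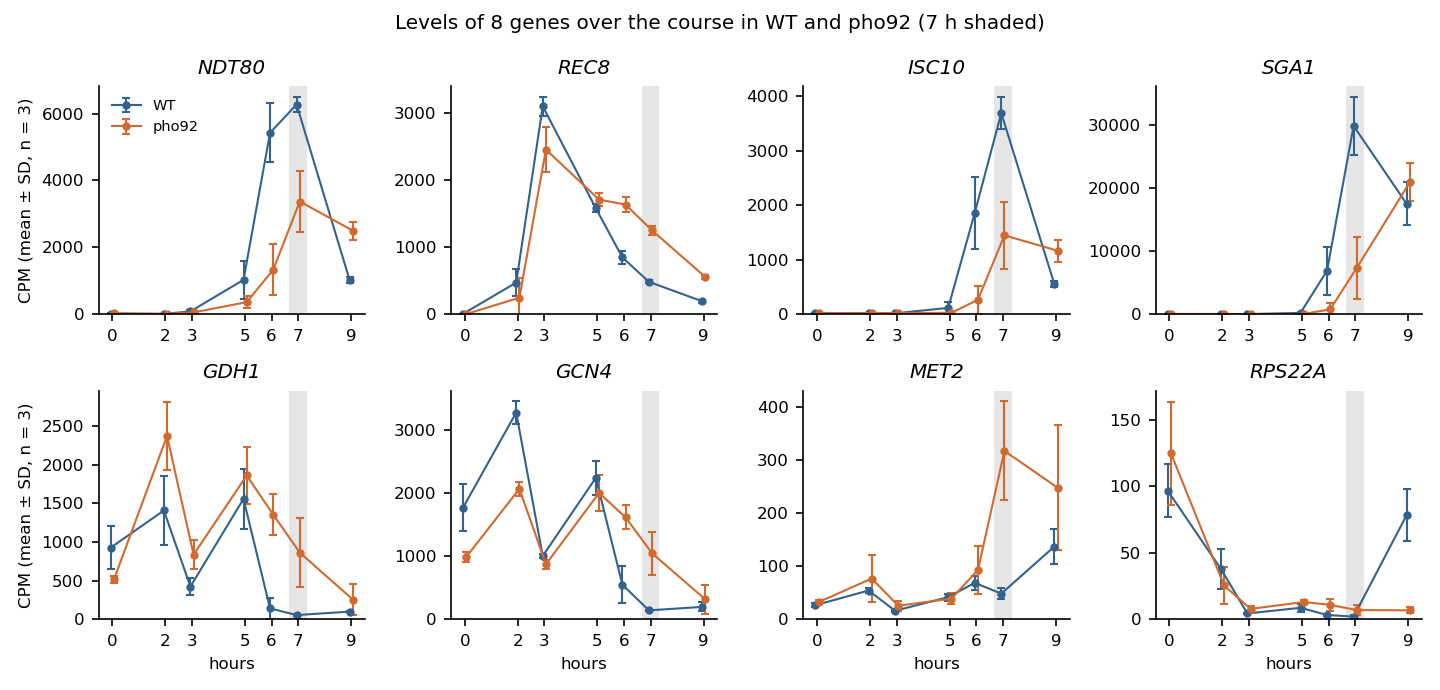
Mean CPM with SD (n = 3, vertical axis from 0) of 8 genes over the hours in sporulation medium (horizontal axis) in WT and pho92, with 7 h shaded. At 7 h NDT80, ISC10 and SGA1 were lower in pho92 than in WT and REC8, GDH1, GCN4, MET2 and RPS22A were higher, and the NDT80 difference missed the threshold.

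Genes of the early recombination steps had a higher median in pho92, but the share called depended on single libraries. Of 15 genes for double-strand breaks and the chromosome axis, 10 rose and 1 fell (median 0.74), beside 34.7% and 28.1% of all genes tested. All 3 pho92 values lay above all WT values in 14, beside 33.2% of all genes. Without pho92 replicate 3, 5 rose and 1 fell (median 0.56), beside 29.2% and 21.4% of all genes. Of 20 genes for strand exchange, the synaptonemal complex and crossovers, 11 rose and 0 fell (median 0.79). Without pho92 replicate 3, 3 of these rose (median 0.59). When any single WT library was left out 6 or 7 rose, beside 31.6% to 34.7% of all genes. The list for breaks and axis summed to 2067, 2064 and 2016 CPM in WT and 3427, 4182 and 5286 CPM in pho92.

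REC8 (YPR007C, chromosome XVI, 569336 to 571378 on R64), the meiotic cohesin subunit, was at 472, 506 and 469.5 CPM in WT and 1164, 1291 and 1288 CPM in pho92, a log2 fold change of 1.37 (SE 0.43, adjusted p = 0.00551). Its WT means (SD, n = 3) over 3, 6 and 7 h were 3098 ± 139, 846 ± 97.9 and 483 ± 20.4 CPM, beside pho92 means of 2454 ± 332, 1634 ± 113 and 1248 ± 72.4 CPM. HOP1, which encodes an axis protein, was at 390.1, 364 and 381 CPM in WT and 682, 909 and 1319.5 CPM in pho92, but its call was lost without pho92 replicate 3. PCH2, an ATPase that remodels Hop1, rose from 64.6, 66 and 65 CPM to 116, 157 and 227 CPM. The break repair genes MRE11 and RAD50, whose products work in 1 complex, rose by 0.93 (SE 0.15) and 0.79 (SE 0.15) on the log2 scale, while XRS2, the third member of that complex, was at 43.6, 56.7 and 52.8 CPM in WT and 43.1, 39.2 and 38.2 CPM in pho92, lower by 0.34 with TMM factors and higher by 0.48 with total counts. SPO11, the enzyme that cuts the DNA, did not pass the test, at 127, 115 and 107 CPM in WT and 129, 151 and 211 CPM in pho92.

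MEI5, which loads the recombinase Dmc1 onto DNA, had the largest rise of these lists. It was at 277, 248 and 264 CPM in WT and 1197, 1249 and 1039.9 CPM in pho92, 4.42-fold higher (adjusted p = 0.000104), and the 3 pho92 libraries lay close together. DMC1 was at 818, 828 and 858 CPM in WT and 1294, 1651 and 2372 CPM in pho92, a log2 fold change of 1.09 (SE 0.41) whose call was lost without pho92 replicate 3 or without WT replicate 1. ZIP1, the central element of the synaptonemal complex, overlapped between groups, at 512, 498 and 489.9 CPM in WT and 480.1, 667 and 833 CPM in pho92.

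GCCGCC, the core of URS1, occurred in 7 of 15 windows of the break and axis genes (46.7%) and in 9 of 20 of the crossover genes (45%), against 4.8% of all windows. Its share was 4.91% among genes called higher and 3.97% among genes called lower. The windows of 3 genes that were higher in pho92 are given in the same form, with URS1 core matches in capitals.
MEI5 (chrXVI:321581-321880, minus strand): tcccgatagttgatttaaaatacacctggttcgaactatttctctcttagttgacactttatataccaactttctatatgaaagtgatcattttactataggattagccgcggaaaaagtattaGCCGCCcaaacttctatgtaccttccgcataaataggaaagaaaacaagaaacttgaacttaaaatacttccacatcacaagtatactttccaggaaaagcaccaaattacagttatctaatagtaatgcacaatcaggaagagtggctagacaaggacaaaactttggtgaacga
REC8 (chrXVI:571329-571628, minus strand): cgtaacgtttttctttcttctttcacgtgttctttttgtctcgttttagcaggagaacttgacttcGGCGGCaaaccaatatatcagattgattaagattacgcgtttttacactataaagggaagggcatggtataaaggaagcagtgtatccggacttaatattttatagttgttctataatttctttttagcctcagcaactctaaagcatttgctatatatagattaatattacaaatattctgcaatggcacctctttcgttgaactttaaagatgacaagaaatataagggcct
HOP1 (chrIX:226352-226651, plus strand): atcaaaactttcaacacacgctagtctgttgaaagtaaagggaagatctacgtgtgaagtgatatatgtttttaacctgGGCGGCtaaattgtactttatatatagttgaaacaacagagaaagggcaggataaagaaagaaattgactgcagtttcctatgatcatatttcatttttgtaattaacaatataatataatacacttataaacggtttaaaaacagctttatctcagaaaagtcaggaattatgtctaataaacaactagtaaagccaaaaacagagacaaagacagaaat

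Of 33 DNA replication genes, 15 were higher and 6 lower (median 0.37), or 12 and 4 without pho92 replicate 3. On TMM-scaled libraries their summed level was lower in pho92, at 2874, 2957 and 2869 CPM against 3312, 3375 and 3317 CPM in WT. The direction of that sum depends on the TMM factors. With total counts 26 rose and 2 fell (median 1.17), beside 67.1% higher and 7.15% lower over all genes. MCM6, a subunit of the replicative helicase, rose from 35.3, 45.5 and 40.6 CPM to 62.7, 85.6 and 99.7 CPM. Other members went down. PSF3, of the GINS complex that activates the helicase, fell from 309.8, 218 and 192 CPM to 116, 50.3 and 32.1 CPM (log2 fold change -1.86, and -2.53 without pho92 replicate 1), and PRI2, the large primase subunit, from 419.9, 291 and 325 CPM to 132, 110.5 and 88.3 CPM. Of 10 histone genes, 4 fell and 1 rose, with a median of -0.74 that was 0.06 with total counts. Without WT replicate 2, 2 fell and the median was -0.47. HHF1, an H4 gene, was at 333, 741 and 452 CPM in WT and 183, 163 and 184 CPM in pho92, and HHT2, an H3 gene, at 719, 1027 and 858 CPM in WT and 1410.3, 1501 and 1162 CPM in pho92, a call lost without WT replicate 1. Each of these has a near-identical second copy in the genome, so their separate values are uncertain.

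**Figure D3:**
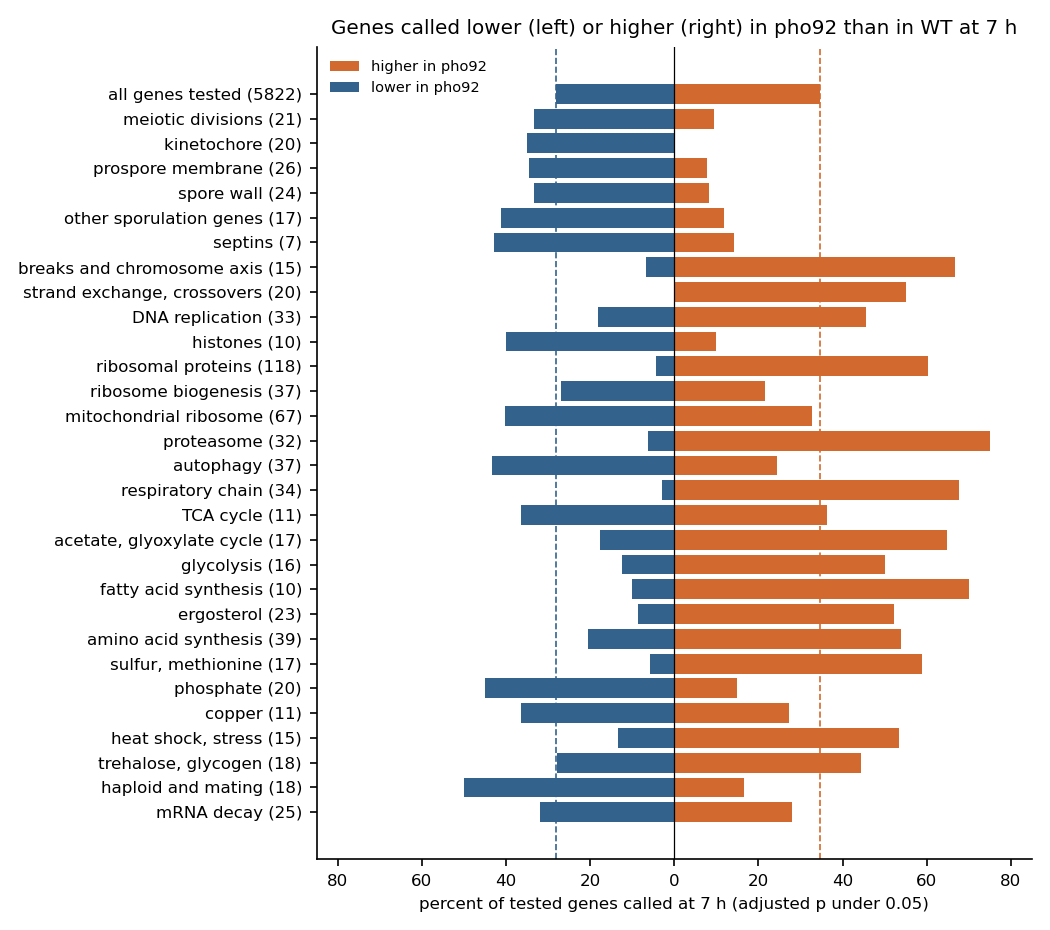
Percent of the tested genes of 29 lists and of all genes (number tested in brackets) that were called higher (right) or lower (left) in pho92 at 7 h, at an adjusted p under 0.05. The dashed lines mark the shares over all genes, 34.7% higher and 28.1% lower, and the proteasome, respiratory chain, fatty acid and ribosomal protein lists reach beyond the right line while the phosphate, autophagy, septin and haploid lists reach beyond the left one.

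Genes of the cytosolic ribosome were higher in pho92. Of 118 ribosomal protein genes, 71 rose and 5 fell (median 0.88), and without pho92 replicate 3 the counts were 49 and 3, with 3 falling also without pho92 replicate 2. Their levels summed to 3448, 3189 and 3008 CPM in WT and 3853, 4107 and 4808 CPM in pho92. RPL19B was at 16.7, 14.8 and 15.7 CPM in WT and 58.9, 89.6 and 110.3 CPM in pho92, a log2 fold change of 2.45 (SE 0.31, adjusted p = 7.2e-09), and RPS16A at 15.6, 18 and 13.1 CPM in WT and 45.4, 56.1 and 82.2 CPM in pho92. Both have a near-identical copy elsewhere in the genome, as most genes of this list do, and how reads that match several genes were counted is not given in the sources used here.

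Ribosome biogenesis genes split. 8 of 37 rose and 10 fell (median -0.01, and 0.95 with total counts), and without pho92 replicate 3 1 rose and 9 fell, while 3 rose without WT replicate 3. UTP7, of the complex that processes the small subunit RNA, fell from 106, 94.5 and 99 CPM to 48.6, 46.1 and 40.6 CPM, and the helicase gene DBP3 from 643, 749 and 709.7 CPM to 372, 207 and 126 CPM. Of 67 mitochondrial ribosomal protein genes, 22 rose and 27 fell (median 0.04), or 22 and 18 without pho92 replicate 3. With total counts 44 of these genes rose and 7 fell (median 0.8). On TMM-scaled libraries their summed level was lower in pho92, at 10513, 8533 and 5457 CPM against 15533, 16215 and 16368 CPM. MRP13, of its small subunit, rose from 6.41, 6.81 and 9.45 CPM to 16.7, 19.9 and 19.9 CPM.

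The respiratory chain and ATP synthase were higher in pho92 across most of their genes. 23 of 34 rose and 1 fell, with a median log2 fold change of 0.81, and without pho92 replicate 3 the counts were 25 and 1. SDH1, the flavoprotein subunit of succinate dehydrogenase, rose from 156, 148 and 149 CPM to 433, 603 and 764 CPM (log2 fold change 1.99, SE 0.19, adjusted p = 1.07e-11). COX4, of cytochrome c oxidase, rose from 97.7, 73.1 and 78.4 CPM to 317, 314 and 322 CPM, and ATP2, the catalytic subunit of ATP synthase, from 187, 154 and 169.6 CPM to 471, 674 and 884 CPM. The groups lie far apart in all 3, and the pho92 values of COX4 are nearly level.

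The tricarboxylic acid cycle did not move as a block, with 4 of 11 genes higher and 4 lower, or 4 and 2 without pho92 replicate 3. FUM1, the fumarase, was 6.68-fold higher, at 548, 804 and 976 CPM against 108, 120.2 and 119.9 CPM. IDH1, a subunit of the NAD-dependent isocitrate dehydrogenase, was 7.89-fold higher, at 160.5, 358 and 573 CPM against 48.1, 44.4 and 45.9 CPM. LSC2, of succinyl-CoA ligase, fell from 2998, 2806 and 3061 CPM to 1709, 1734 and 1456 CPM.

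Carbon enters these cells as acetate. Of 17 genes of acetate use, the glyoxylate cycle and gluconeogenesis, 11 rose and 3 fell (median 1.17), and without pho92 replicate 3 10 rose and 0 fell. On TMM-scaled libraries their summed level was nevertheless lower in every pho92 library, at 64341, 51429 and 48288 CPM against 84609, 68412 and 66376 CPM in WT. The direction of that sum depends on the TMM factors. With total counts 12 of the 17 rose and 0 fell (median 2.12), beside 67.1% higher and 7.15% lower over all genes. MLS1, the malate synthase of the glyoxylate cycle, was at 100.3, 65.2 and 61.3 CPM in WT and at 194, 586 and 1319 CPM in pho92. Its log2 fold change was 3.21 (SE 0.61), and 2.37 without pho92 replicate 3. The pho92 values spread widely, and the rule that chose MLS1 as a largest rise required no overlap with WT. YAT2 and CAT2, carnitine acetyltransferases that move acetyl groups between compartments, rose from 238, 201 and 202 CPM to 779.6, 1525 and 2553 CPM and from 249.7, 203 and 209 CPM to 556, 871 and 1317 CPM. ALD4, the mitochondrial aldehyde dehydrogenase, rose by 1.47 (SE 0.21) on the log2 scale. In glycolysis 8 of 16 rose and 2 fell (median 0.85), with 1 falling when any single WT library, pho92 replicate 2 or pho92 replicate 3 was left out. PGI1 and PFK2, of the upper pathway, were at 24.4, 30.4 and 56.6 CPM and 279, 311 and 254 CPM in pho92 against 10.7, 10.7 and 13.4 CPM and 109, 123 and 142 CPM in WT. ADH1, an alcohol dehydrogenase, fell from 1255, 1120.4 and 1048 CPM to 537, 429 and 292 CPM.

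Fatty acid and sterol genes were mostly higher in pho92. 7 of 10 genes of fatty acid synthesis and desaturation rose and 1 fell (median 1.33). OLE1 (YGL055W, chromosome VII, 398628 to 400160 on R64), the fatty acid desaturase, was at 69.2, 48 and 56.6 CPM in WT and 399.8, 597 and 1023 CPM in pho92, 11.6-fold higher (adjusted p = 1.94e-05). FAA1, a fatty acyl-CoA synthetase, was at 576, 626 and 640.5 CPM in WT and 1451, 1474 and 1382 CPM in pho92, with little spread in either strain. ELO2, an elongase, fell from 1053, 868 and 805 CPM to 456, 221 and 138 CPM. Of 23 ergosterol genes, 12 rose and 2 fell (median 0.65), ERG6 rising from 72.5, 71.8 and 87.8 CPM to 257, 390.1 and 398 CPM and ERG7 from 29.8, 34.8 and 36.6 CPM to 66.3, 67.1 and 83 CPM.

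Amino acid and nitrogen genes held several of the largest rises. GDH1 (YOR375C, chromosome XV, 1041678 to 1043042 on R64), the NADP-dependent glutamate dehydrogenase that assimilates ammonium, rose the most of the named genes, from 69.9, 38.7 and 47.6 CPM to 388, 911 and 1286 CPM, or 16.5-fold (log2 fold change 4.04, SE 0.65, adjusted p = 9.04e-07). GDH3, its paralog, rose from 25.6, 15.7 and 21 CPM to 42.1, 154 and 279 CPM. GCV1, of the glycine cleavage system, rose from 19.4, 13.9 and 12.2 CPM to 81.1, 142 and 297 CPM. Without pho92 replicate 3 the log2 fold change of GCV1 was 2.87 and that of GDH3 was 2.24, each over 1.5-fold less than with it. In all 3 genes the pho92 libraries spread widely, and each lay above every WT library, as the rule that chose the genes required.

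GCN4, the activator of amino acid synthesis genes, was at 135, 144 and 137 CPM in WT and 665, 1132 and 1337 CPM in pho92, 7.54-fold higher (adjusted p = 5.08e-08). Gcn4 is regulated mainly in its translation, which was not measured. Of 39 genes of amino acid synthesis, GCN4 among them, 21 rose and 8 fell (median 0.62), beside 34.7% and 28.1% of all genes tested. Without pho92 replicate 3 the counts were 12 and 8, near the shares of 29.2% and 21.4% over all genes. TRP5, the tryptophan synthase, rose from 48, 44.4 and 35.8 CPM to 96.3, 139 and 175 CPM. LYS2, of lysine synthesis, fell from 2083, 1477 and 1355 CPM to 765, 378 and 279 CPM, and BAT2, the cytosolic branched-chain aminotransferase, from 1508, 1753 and 1737 CPM to 612, 652 and 432 CPM.

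Sulfate assimilation and methionine genes rose as well, 10 of 17, with 1 lower (median 0.78). Without pho92 replicate 3 the counts were 10 and 0. MET6, the methionine synthase, was at 40.2, 26.5 and 29.9 CPM in WT and 139, 217 and 376 CPM in pho92, and MET2, which makes O-acetylhomoserine, at 56.8, 36.8 and 50.6 CPM in WT and 404, 331 and 218 CPM in pho92. MHT1, which salvages methionine from S-methylmethionine, and MUP3, a methionine permease, lay outside that list and were at 98.3, 82 and 48.1 CPM and 383, 364 and 227 CPM in pho92 against 6.02, 4.93 and 11.1 CPM and 37.8, 42.3 and 69.5 CPM in WT. For MET2, MHT1 and MUP3 replicate 3 was the lowest pho92 library, unlike MET6, where it was the highest.

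A pair of short motifs of these pathways was searched in the same windows, CACGTG, read by Pho4 and by Cbf1, and TGACTC, read by Gcn4. CACGTG was found in 5 of 17 windows of the sulfur list (29.4%) and 4 of 20 of the phosphate list (20%), against 3% of all windows. TGACTC was found in 22 of 39 windows of the amino acid list (56.4%), against 8.41% of all windows, 9.21% of genes called higher and 7.94% of genes called lower. MET10, of sulfite reductase, rose from 65.6, 40.3 and 38 CPM to 128, 169 and 214 CPM and CYS3, which makes cysteine, from 15, 9.86 and 5.95 CPM to 38.3, 46.1 and 51.1 CPM. Their windows are shown with CACGTG in capitals for MET10 and TGACTC, on either strand, in capitals for CYS3. The TGACTC of CYS3 begins within its start codon and runs into the coding region, so it does not lie upstream of the gene. The CYS3 window also holds CACGTG before the start codon, left here in lower case.
MET10 (chrVI:213062-213361, plus strand): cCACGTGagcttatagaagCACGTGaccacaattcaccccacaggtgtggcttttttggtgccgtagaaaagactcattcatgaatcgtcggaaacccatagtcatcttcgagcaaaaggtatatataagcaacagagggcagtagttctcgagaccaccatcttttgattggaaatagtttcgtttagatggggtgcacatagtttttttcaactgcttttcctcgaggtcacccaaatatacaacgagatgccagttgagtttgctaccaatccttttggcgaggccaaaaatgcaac
CYS3 (chrI:130549-130848, plus strand): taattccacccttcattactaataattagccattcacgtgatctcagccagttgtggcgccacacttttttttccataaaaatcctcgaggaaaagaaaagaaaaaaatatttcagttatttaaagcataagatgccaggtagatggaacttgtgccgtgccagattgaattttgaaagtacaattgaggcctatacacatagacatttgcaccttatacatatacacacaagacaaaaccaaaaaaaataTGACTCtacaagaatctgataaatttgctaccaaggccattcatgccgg

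Protein turnover genes went in different directions. Of 32 genes of the 26S proteasome, 24 rose and 2 fell, with a median of 0.57, and without pho92 replicate 3 the counts were 21 and 2, with 1 falling without WT replicate 1. RPT3, an ATPase of its cap, was at 241, 259 and 284 CPM in WT and 408, 509.8 and 542 CPM in pho92 and RPN1, a scaffold of the cap, at 203, 185 and 187 CPM in WT and 301, 395 and 519 CPM in pho92. In autophagy 16 of 37 fell and 9 rose (median -0.24, and 0.59 with total counts), and without pho92 replicate 3 11 fell and 5 rose. ATG38, of the autophagy lipid kinase complex, fell from 140.4, 129 and 132 CPM to 60.2, 44.4 and 40.4 CPM and ATG5, of the conjugation system, from 293, 292 and 290.3 CPM to 123, 64.1 and 48.7 CPM. The vacuolar proteases also divided. PEP4 and PRC1 fell from 13406, 9684 and 9281 CPM to 6187, 4072 and 2426 CPM and from 3370.1, 2757 and 2684 CPM to 1647, 1409 and 1203 CPM, and PRB1 rose from 1050.5, 823 and 777 CPM to 1208, 1851 and 2539 CPM.

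Among heat-shock and stress genes 8 of 15 rose and 2 fell (median 0.78), or 6 and 2 without pho92 replicate 3. The small chaperone gene HSP42 rose from 189, 164 and 198 CPM to 429.9, 494 and 708 CPM. The disaggregase gene HSP104 rose from 34.6, 26.8 and 26.8 CPM to 86.5, 115 and 163 CPM. Of 18 trehalose and glycogen genes, 8 rose and 5 fell, or 8 and 3 without pho92 replicate 3, and the summed level was lower in pho92, at 18145, 12616 and 8553 CPM against 41383, 34770.0 and 31257 CPM. PGM2, a phosphoglucomutase, rose from 145, 122 and 127 CPM to 405, 596 and 895 CPM and TPS2, a trehalose phosphatase, from 50.0, 31.3 and 40.4 CPM to 87.8, 111 and 152 CPM. SGA1, given above, was the largest fall of that list.

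Of 20 phosphate-responsive genes, 9 fell and 3 rose (median -0.28, and 0.53 with total counts), and without pho92 replicate 3 5 fell and 3 rose. PHO4, the activator of the regulon, fell from 97.4, 83.1 and 70.3 CPM to 61.6, 28.5 and 29.3 CPM, and PHO85, the kinase that restrains it, rose from 21.3, 18 and 20.3 CPM to 42.6, 54 and 73 CPM. Copper was the inducer of IME1. Of 11 copper genes 3 rose and 4 fell, beside 34.7% and 28.1% of all genes tested. Their summed level was lower in pho92, at 2639, 1831 and 1439 CPM against 5055, 4641 and 4473 CPM. CTR1, the high-affinity copper importer of the plasma membrane, fell from 778, 593 and 578 CPM to 349, 189.6 and 109 CPM, and CCC2, which carries copper into the Golgi, from 3043, 2650.4 and 2636 CPM to 1259, 714 and 405 CPM. CTR2, the vacuolar copper exporter, rose from 8.68, 7.39 and 5.95 CPM to 16.5, 20.3 and 25.2 CPM.

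Nitrogen-regulated genes rose in 6 and fell in 3 of 12 cases, GAT1, an activator, rising from 61.9, 39.4 and 37.8 CPM to 91.1, 130.4 and 153 CPM and the ammonium permease gene MEP1 from 41.2, 46 and 42.5 CPM to 74.1, 133 and 193 CPM. The summed level of this list was lower in pho92, at 8334, 5511 and 3755 CPM against 20146, 16375 and 14546 CPM. Of 7 hexose transporter genes, HXT10 among them, 3 fell and 1 rose, the latter being HXT4, at 10.6, 9.71 and 10.5 CPM in WT and 27.2, 25 and 21.7 CPM in pho92.

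RNA-binding and mRNA decay genes were called at shares near or below those of all genes tested, 34.7% higher and 28.1% lower. Of 11 meiotic RNA-binding and splicing regulators, 3 rose and 0 fell, or 1 and 0 without pho92 replicate 3. RNP1, a ribonucleoprotein gene, was at 206, 195 and 208 CPM in WT and 328, 491 and 771 CPM in pho92, and RIM4, the amyloid-forming repressor of translation in meiosis, at 2260.2, 1945 and 1656 CPM in WT and 2187, 2844 and 3557 CPM in pho92. Both calls were lost without pho92 replicate 3, and that of RIM4 also without WT replicate 2, WT replicate 3 or pho92 replicate 2, while PUB1, a poly(U)-binding protein, differed by 0.46 (SE 0.15) with overlapping groups. Among 25 genes of the Ccr4-Not complex, decapping and decay, 7 rose and 8 fell, or 6 and 6 without pho92 replicate 3. NOT3 fell from 721, 618 and 601 CPM to 347, 266 and 145 CPM, CCR4, the deadenylase, rose from 57.5, 53.6 and 54.4 CPM to 76.2, 87.4 and 91.9 CPM, and SCD6, a repressor of translation, from 37.3, 25.1 and 24.4 CPM to 54, 62.3 and 75.4 CPM. In the Paf1 complex, 2 of 5 fell and 0 rose, LEO1 falling from 395, 339.6 and 339 CPM to 254, 196 and 136 CPM, and 1 fell without WT replicate 1, pho92 replicate 1 or pho92 replicate 2.

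Haploid and mating genes were lower in 9 and higher in 3 of 18 cases (median -0.54, and 0.25 with total counts), and without pho92 replicate 3 5 fell and 2 rose. STE5, the scaffold of the pheromone kinase cascade, fell from 534, 546 and 568 CPM to 169, 150.4 and 80.8 CPM. STE2, the receptor of alpha-factor, fell from 52.2, 48.9 and 51.2 CPM to 18.2, 20.6 and 18.5 CPM, and the kinase gene FUS3 rose from 13.4, 15.7 and 16.6 CPM to 32, 30.3 and 29.8 CPM. Of 21 genes of mitotic G1 and cell separation, 6 rose and 6 fell, beside 34.7% and 28.1% of all genes tested. SIC1, the inhibitor of S-phase cyclin kinase, rose from 22.1, 14.2 and 19.1 CPM to 40.4, 42 and 38 CPM. MBP1, a subunit of the G1 activator MBF, fell from 343, 292 and 329 CPM to 161, 115 and 65.2 CPM.

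The remaining genes among the 12 largest changes in each direction belong to no single pathway. On the lower side were CTR86, an essential gene of unclear function, at 568, 549 and 572 CPM in WT and 141, 71.1 and 44.3 CPM in pho92, HIT1, which helps assemble small nucleolar RNA particles, at 186, 156 and 129 CPM in WT and 43.4, 20.5 and 13.9 CPM in pho92, and SAD1, a splicing factor, at 642, 519.7 and 530.1 CPM in WT and 169, 95 and 50.1 CPM in pho92. ROK1, a helicase of ribosome assembly, was at 183, 183 and 183 CPM in WT and 47.8, 33.5 and 26.9 CPM in pho92. INP51, a phosphoinositide phosphatase, and ARO10, a decarboxylase that works on amino acid breakdown products, fell by 2.34 and 2.33 on the log2 scale. None of these genes showed overlap between the groups, as the rule that chose the largest changes required. GID10, a substrate receptor of the GID ubiquitin ligase, was at 219, 42.6 and 30.2 CPM in WT and 18.3, 11.6 and 13.8 CPM in pho92, and its log2 fold change of -2.76 (SE 0.36) was -1.34 without WT replicate 1. On the higher side INA1, a membrane protein gene, was barely present in WT, at 0.704, 1.59 and 1.37 CPM, and reached 15.1, 15.1 and 19.6 CPM in pho92. MGA1, which encodes a protein related to heat-shock factors, was at most at 2.61 CPM in WT and at 16.7, 26.2 and 33.7 CPM in pho92, and VPS73, of vacuolar protein sorting, at 15.8, 8.99 and 11.7 CPM in WT and 103, 117 and 167 CPM in pho92.

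**Figure D4:**
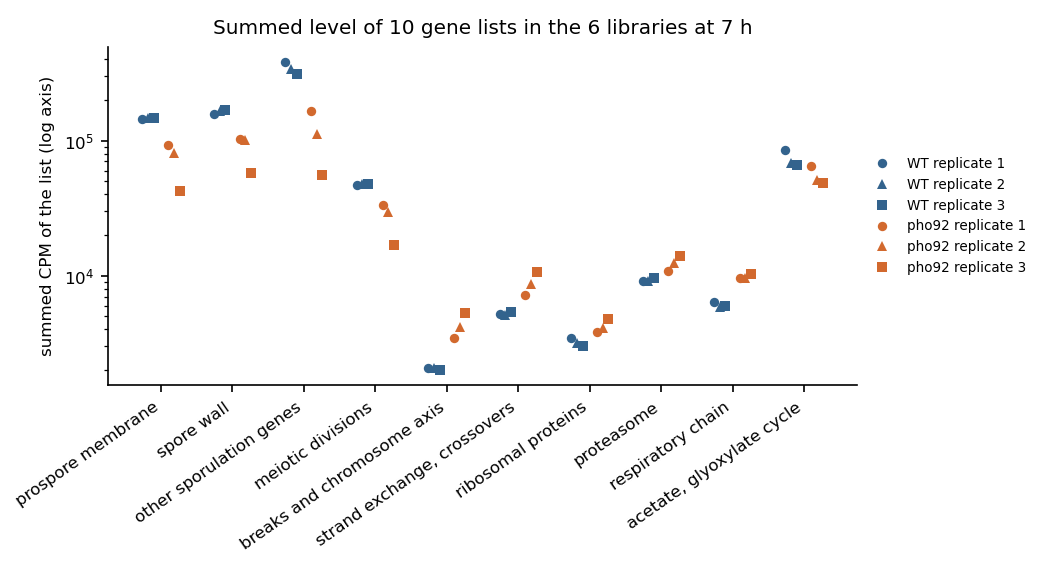
Summed CPM (vertical log axis) of 10 gene lists in the 3 WT and 3 pho92 libraries at 7 h, coloured by strain and shaped by replicate number. The WT libraries lie close together, while pho92 replicate 3 is the lowest pho92 library for the 3 spore lists and the division list and the highest for the break and axis, crossover, ribosomal protein, proteasome and respiratory chain lists.

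The same strains were measured 1 h earlier and 2 h later, with other libraries. At 6 h, 4119 genes differed (70.7% of those tested), 2200 higher (37.8%) and 1919 lower (33.0%), and at 9 h 3326 differed (57.1%), 1884 higher (32.4%) and 1442 lower (24.8%). Whether the difference between strains at 7 h was itself different from that at 6 h was tested gene by gene, and 1545 genes passed (26.5%), 900 moving up (15.5%) and 645 down (11.1%). Without WT replicate 1 that count was 959 and without pho92 replicate 2 it was 1008. Against the difference at 9 h, 4047 genes passed (69.5%), 1964 up (33.7%) and 2083 down (35.8%). These 2 counts share the 6 libraries of 7 h.

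The prospore list shows the sequence. Its median log2 fold change was -2.18 at 6 h, with 23 of 26 lower and 2 higher, -0.83 at 7 h, and 1.34 at 9 h, with 22 higher and 0 lower. The change from 6 to 7 h passed the test upward in 5 and downward in 0 of the 26 genes, and the difference at 7 h was below that at 9 h in 24 and above it in 1. In WT the prospore list summed to 144400 to 146850 CPM at 7 h and to 25090 to 31072 CPM at 9 h. In pho92 it summed to 42251 to 92239 CPM at 7 h and to 60721 to 85635 CPM at 9 h. The division list had medians of -1.73, -0.43 and 1.12 at 6, 7 and 9 h. The log2 fold change of NDT80 was -2.03 (SE 0.43) in the 6 h libraries and 1.30 (SE 0.42) in those of 9 h, beside -0.90 given above. The 7 h value did not differ from the 6 h value at the threshold (adjusted p = 0.141), and it was lower than the 9 h value by 2.20 (SE 0.59, adjusted p = 0.00105). With total counts in place of TMM factors the latter difference was not called.

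The ribosomal protein genes were higher in pho92 at 6 and 7 h and lower at 9 h. Their median was 0.69 at 6 h, 0.88 at 7 h and -2.26 at 9 h, when 113 of 118 were lower in pho92 and 1 higher, and the 7 h difference exceeded that of 9 h in 106 and was below it in 2. For RPS22A the WT means (SD, n = 3) of 7 and 9 h were 1.85 ± 0.958 and 78.4 ± 19.8 CPM, and the pho92 means 6.78 ± 3.59 and 6.58 ± 2.35 CPM. Ribosome biogenesis genes had medians of 1.01, -0.01 and -1.52. The proteasome list was level at 6 h, with a median of 0.00 and 1 higher and 6 lower, and the change from 6 to 7 h passed the test upward in 14 and downward in 0 of 32 genes.

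**Figure D5:**
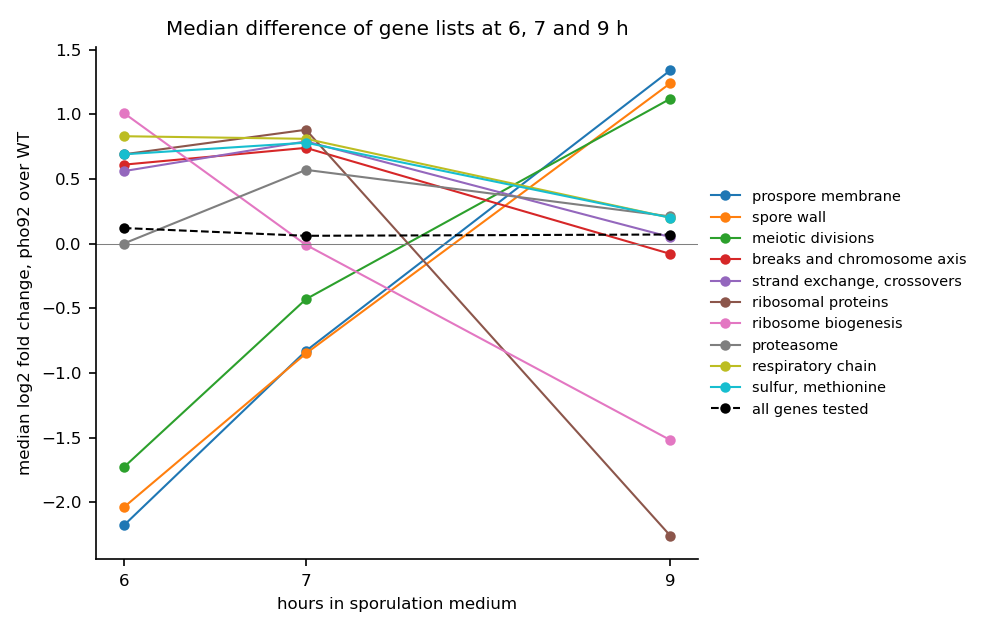
Median log2 fold change of pho92 over WT (vertical axis) of 10 gene lists and of all genes tested at 6, 7 and 9 h (horizontal axis), on TMM-scaled libraries. The prospore, spore wall and division lists climb from below 0 to above 0, the ribosomal protein and ribosome biogenesis lists drop below 0 by 9 h, and the median of all genes stays near 0.

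WT changed quickly over these hours. Between 5 and 6 h in WT, a contrast that uses none of the 7 h libraries and was added after seeing the data, 4407 of 5822 genes changed (75.7%), 1957 up (33.6%) and 2450 down (42.1%). Of the 2019 genes higher in pho92 at 7 h, 1601 (79.3%) had fallen in WT between 5 and 6 h, or 65.3% of all that fell, and 100 (4.95%) had risen, against those shares of all genes tested. Of the 1638 genes lower in pho92, 1176 (71.8%) had risen, or 60.1% of all that rose, and 119 (7.26%) had fallen. Set against WT at 6 h, pho92 at 7 h differed in 1421 genes (24.4%), 804 higher (13.8%) and 617 lower (10.6%). This contrast shares the pho92 libraries with the main one.

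Against WT at 6 h few spore genes passed the test, while other groups still differed. In the prospore list 1 of 26 was higher and 0 lower, in the wall list 1 and 0. The break and axis list had 0 higher and 3 lower. In the sulfur list 12 of 17 were higher and 1 lower (median 1.29), MET2 by 2.22 (SE 0.36). The respiratory chain had 19 higher and 1 lower, CSM1 was lower by 1.20 on the log2 scale, and in the proteasome list 0 were higher and 23 lower.

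IME4 encodes the enzyme that writes the mark that Pho92 reads, and the labels give an ime4 mutant at the same time, with the same construct. Between the 2 mutants 3959 genes differed (68.0%), 1946 higher in pho92 (33.4%) and 2013 lower (34.6%), and the contrast shares the pho92 libraries with that against WT. Spore genes were higher in pho92: 23 of 26 prospore genes and 16 of 17 other sporulation genes were higher and 1 and 0 lower. HXT10 was at 4829 ± 4981 CPM in pho92 and 65.2 ± 59.8 CPM in ime4 (SD, n = 3), a log2 difference of 6.21 (SE 0.92). SGA1 was at 7354 ± 4869 and 252 ± 197 CPM and SPR2, a sporulation gene, at 17988 ± 9905 and 599 ± 338 CPM. The break and axis list went the other way, with 0 higher and 11 lower in pho92. Beside PHO92 itself, the genes furthest below ime4 were REV1, of translesion DNA synthesis, SKG6 and SPL2, with log2 differences of -2.66 (SE 0.21), -2.51 (SE 0.23) and -2.36 (SE 0.35). IME4 was at 0.17 ± 0.0757 CPM in ime4, and of 118 ribosomal protein genes 13 were higher and 9 lower in pho92 than in ime4.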

How the data were processed

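Poly(A) RNA was sequenced as 50-nt single reads from stranded TruSeq libraries, per the labels' protocols. The authors deposited raw read counts per gene, made with bcl2fastq 2.17.1.14, TopHat2 2.0.14, Bowtie and HTSeq 0.6.1, per the submitters' processing notes, which also name R 3.5.1 and DESeq2 1.22.1. Those notes and the labels name no genome build, strand setting or rule for reads with several matches. The deposited log2 fold changes and adjusted p-values of the authors were used for counts of calls only.

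From the counts, genes were filtered with filterByExpr (minimum count 10), leaving 5822 of 6088 genes. All 63 libraries were fitted together, with 1 mean per strain and time (21 groups), TMM factors and edgeR 4.0.16's quasi-likelihood test (R 4.3.3, limma 3.58.1). P-values are two-sided and adjusted by Benjamini-Hochberg over all genes tested, and those under 0.05 are called. The standard error is the absolute log2 fold change divided by the root of the F statistic. The fits were tested on simulated data. Depth at 7 h was 15932335 to 33048881 counts per library.

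The genes named are the 12 largest called changes each way with a standard name, a mean of at least 10 CPM in either group and no overlap between groups, up to 4 members of each list with the smallest adjusted p, the 4 largest each way in the time and ime4 contrasts, and PHO92, IME4, IME1, IME2 and NDT80. Some genes that this rule names are not reported here. The members and lists were chosen with earlier results of these data known. The WT contrast of 5 and 6 h and the search for TGACTC were chosen after seeing the data, as were other genes shown. Of the tested genes, 316 had no match in the R64 annotation and entered no promoter count. Alternatives covered the scaling factors, the low-count filter, DESeq2 1.42.0, a replicate block, the 6 libraries alone, a fold threshold and leaving out each library.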

Additional observations from a re-analysis of the deposited data

Results flagged for a closer look

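The difference between pho92 and WT at 7 h itself differed from that at 6 h in 1545 genes by edgeR's quasi-likelihood test. Among called genes with a standard name and a mean of at least 10 CPM in a group, the largest upward moves were MHT1 (3.24 on the log2 scale), MUP3 (2.65), LDS1 (2.33) and MET2 (2.29). The largest downward moves were NSR1 (-4.01), FMP45 (-3.25), GID10 (-3.18) and DDR2 (-2.95). Without WT replicate 1 the value of FMP45 was -1.37 and that of DDR2 was -1.08, neither called. LDS1 was not called without that library or without pho92 replicate 2.

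The difference at 7 h differed from that at 9 h in 4047 genes. Among called genes with the same limits, RPS22A (5.49), RPS10A (5.47) and RPL24A (4.96) lay furthest above their 9 h difference. HXT10 (-3.41), GDS1 (-3.27), CTR1 (-3.21) and AMD1 (-3.20) lay furthest below it. Of the regulators, NDT80 (-2.20) and IME2 (-1.44) lay below it, and neither was called with total counts, nor IME2 with upper-quartile factors.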

How the results depend on the processing

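The count of 3657 called genes lay between 2955 and 3864 when single libraries were left out, with 1704 to 2119 higher and 1251 to 1745 lower. It was 2344 in the 6 libraries alone with a replicate block, where 1247 were higher, and 1467 with a 2-fold threshold, 830 higher and 637 lower. Total counts gave 3908 higher and 416 lower. The count for 7 against 6 h ran from 959 to 1836, for 7 against 9 h from 3676 to 4169, against ime4 from 3363 to 4137, and against WT at 6 h from 1234 to 1343. Whether equal replicate numbers mark pairs is not known. The correlations of equal numbers were -0.12, 0.08 and -0.20, and 0 of 3 pho92 libraries correlated best with the same number. These are correlations of deviations from the mean of only 3 libraries, so they cannot exclude shared handling. A replicate block over all libraries gave 2028 higher and 1666 lower, and the 6 libraries alone without a block gave 2871 called genes. Of 1974 values of 141 named genes under 14 alternatives, 1881 kept their direction and their side of the threshold. With total counts the log2 fold change was 0.63 for IME4, 0.57 for IME2, 0.24 for MCK1 and 0.48 for XRS2, and the 7 h minus 9 h difference of IME4 was 0.90. Leaving out single libraries, FMP45 ranged from -1.56 to 0.75 (without WT replicate 1) and DDR2 from -0.45 to 1.87 (without WT replicate 1). DDR2 was at -0.06 with RLE factors and -0.05 with DESeq2. The 7 h minus 6 h difference of IME1 ranged from -0.22 (without pho92 replicate 3) to 0.41. The cause was not tested.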
